A study of Mus musculus with 8 samples.

Results

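Egr1, Egr2 and Egr3 encode zinc-finger transcription factors that bind GC-rich sites, and the Fos genes (Fos, Fosb, Fosl1, Fosl2) and Jun genes (Jun, Junb, Jund) encode the leucine-zipper proteins that pair to form AP-1. These 10 genes were taken by symbol, and each was read on 1 gene probe. They were 10 of 15097 named genes, on 10 of 21779 placed probes. Jun proteins pair with each other or with a Fos protein, whereas Fos proteins need a Jun partner to bind DNA well. The Egr genes, Fos, Fosb and most Jun genes are immediate-early genes, switched on within minutes of a signal, and most of their transcripts are short-lived. Signals through Ras, ERK and serum response factor act on many of them. In T cells AP-1 acts with NFAT at cytokine genes, and the beta-c chain of the GM-CSF receptor is one of the cytokine receptors that feed the Ras pathway.

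The cells were CTL-EN, a mouse T cell line, with the human GM-CSF receptor beta-c chain either carrying glycine in place of serine (Ser585Gly) or in the wild-type form. Both populations spent 12 h without factor in RPMI with 0.5% serum, which is the 0 h point, and then 12 h with human GM-CSF (50 ng/mL). The 4 RNA populations were Ser585Gly at 12 h and at 0 h and wild type at 12 h and at 0 h. No array held cells kept for a further 12 h without GM-CSF, so time and GM-CSF cannot be told apart, and an early burst before 12 h was not sampled. The introduced human chain has no probe here and was not measured. The labels do not say whether each population was 1 clone.

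RNA was compared on 8 spotted oligonucleotide arrays with 2 dyes, on the 4 edges of a square. The time edges were 12 h against 0 h in Ser585Gly and in wild type, and the mutation edges were Ser585Gly against wild type at 12 h and at 0 h. On replicate 1 of an edge Cy5 marked the 12 h or Ser585Gly RNA, and on replicate 2 Cy3 did. All ratios below are log2 ratios turned so that a positive value means higher at 12 h or in Ser585Gly. The labels name no separate cultures, so p-values measure the spread between these hybridisations, which may be technical. Of the T cell markers, 12 of 13 were above the empty wells on all 16 readings (8 arrays, 2 dyes), with a median brightness percentile of 91.2 among all probes; the exception, Cd4, was at 1.21. Markers of other cell types also gave signal above the empty wells on all readings, in 6 of 8 for myeloid cells, 4 of 5 for B cells, 2 of 4 for erythroid cells, 4 of 6 for mast cells and 5 of 6 for fibroblasts. Their list medians were at percentiles 23.9 to 47.7, and the brightest were Col1a1 at 87.7 and Hba-a1 at 77.2, which were picked out after their values were seen. At 12 h against 0 h the T cell list had 1 marker higher and 2 lower in each population, and the erythroid list had 1 of 4 lower in each; with pairs averaged these were 0 and 2 for T cells and 0 for erythroid cells. The myeloid list had 1 of 8 higher in wild type at 12 h, and 1 higher and 1 lower in Ser585Gly at either time (0 and 1 at 12 h with pairs averaged). In the fit on 8 arrays (limma, adjusted p under 0.05), 23.1% of the T cell list and 25% of the erythroid list were called over time in each population. Of all probes, 10.5% were called over time in Ser585Gly and 9.46% in wild type. Of the myeloid list, 12.5% were called over time in wild type, and 25% between the populations at each time. Between the populations 4.07% of all probes were called at 0 h and 1.72% at 12 h. The part of these markers in the results was not tested. Replicate 1 of the mutation edge at 0 h stood apart, with a median absolute log2 ratio of 0.33 against 0.14 to 0.20 on the other arrays. Over all probes the dye swaps of 12 h against 0 h correlated at 0.509 in Ser585Gly and 0.515 in wild type, and those of Ser585Gly against wild type at 0.219 at 12 h and 0.124 at 0 h.

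Signal limited some of the members. A member's signal was judged against the empty wells of the gene plates, by the 95th percentile of those wells in each dye on each array. All 16 readings were above that level for Egr1, Egr2, Fosl1, Fosl2, Jun, Junb and Jund. Fosb had 15 of 16 readings above it, and the reading below was of Ser585Gly at 12 h. Fos had 14 of 16, with 1 of 4 wild-type readings below at 12 h and 1 of 4 below at 0 h. Egr3 had only 6 of 16 above, so its ratios carry little information. The name of every member rests on its probe number and a recovered print order. For Junb and Fosl2 the spot in the deposited order was not the nearest to the deposited ratios, and for the other members it was. That check concerns the deposited order and not the recovered spot on which each member was read.

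After 12 h with GM-CSF, Fos was the member that rose in Ser585Gly cells, while Fosb and Junb fell there. Those were 3 of the 10 members called at an adjusted p under 0.05 (limma, Benjamini-Hochberg over all probes), and 10.5% of all probes were called in that comparison. By direction, 1 of 10 members was higher where 5.73% of probes were, and 2 of 10 were lower where 4.72% were. The median ratio of the 10 members was −0.13, against 0.00821 over all probes. In cultured cells measured in bulk, fewer cells with a transcript and less of it per cell cannot be told apart.

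**Figure D1:**
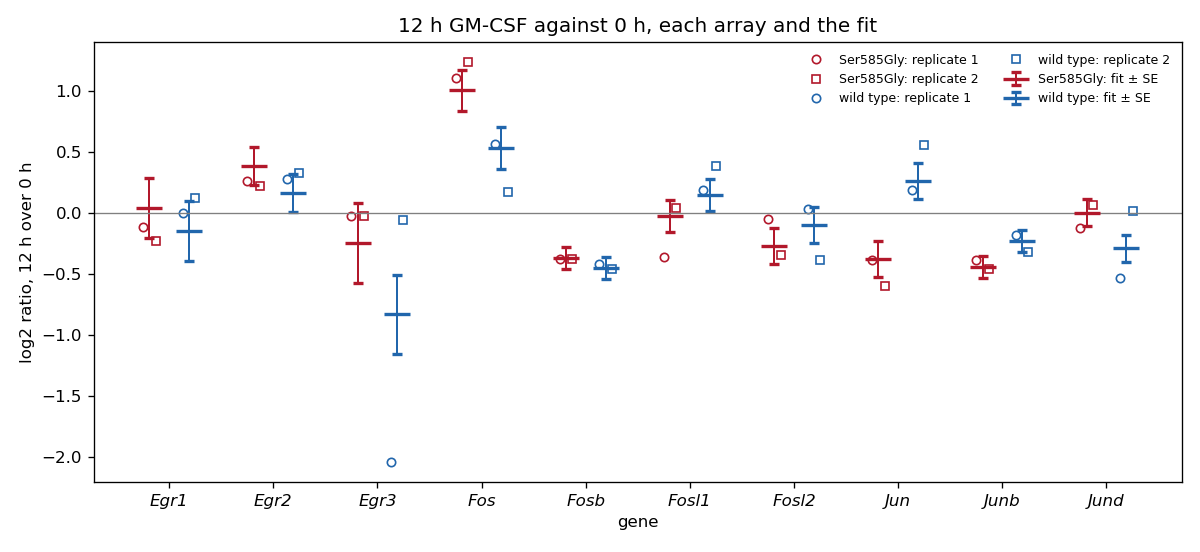
Log2 ratio of 12 h over 0 h for each of the 10 genes (y axis), in Ser585Gly (red) and wild type (blue). Open symbols are single arrays by dye orientation, bars are the fit over 8 arrays with its standard error. Fos in Ser585Gly lies at 1.11 and 1.24 on its arrays, and 1 of the wild-type arrays of Egr3 lies at −2.04.

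Fos, the founding Fos gene, had ratios of 1.11 and 1.24 on the arrays of 12 h against 0 h in Ser585Gly, and of 0.56 and 0.17 on those in wild type. All 4 of these arrays were positive. The fit over 8 arrays gave 1.01 ± 0.17 in Ser585Gly (SE), a 2.01-fold rise (adjusted p = 0.00826, limma; 0.0242 with dye-swap pairs averaged). In wild type it gave 0.53 ± 0.17, which did not pass (adjusted p = 0.0926). The direct comparison at 12 h read 0.32 and 0.37 for Ser585Gly over wild type, and the fit gave 0.51 ± 0.17 (adjusted p = 0.243). The test of whether the response itself differed gave 0.47 ± 0.20 (95% interval 0.02 to 0.92, adjusted p = 0.706), so the responses were not shown to differ. In Ser585Gly the call was kept in each of the 11 alternatives that could be run for this probe. The ratio there was 0.57 to 1.04, and 0.68 with the deposited value table. The alternative with dim probes left out could not be run for Fos, whose brightness percentile was 19.3. Leaving out either array of the Ser585Gly time edge ended the call (adjusted p = 0.102 for replicate 1; ratio 0.74 and adjusted p = 0.0746 for replicate 2). In wild type a call appeared when replicate 1 of the mutation edge at 0 h was left out (ratio 0.43, adjusted p = 0.0422). The wild-type rise was also called in 1 of the 11 alternatives, with the comparison as a random block (adjusted p = 0.0349, limma).

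Fosb, a Fos protein that pairs with Jun proteins, fell in both populations. Its ratios were −0.38 and −0.38 in Ser585Gly, against −0.42 and −0.46 in wild type. The 4 arrays lay close together, and all were below 0. The fit gave −0.37 ± 0.09 in Ser585Gly, or 1.29-fold lower (adjusted p = 0.0406, limma; 0.125 with pairs averaged), and −0.45 ± 0.09 in wild type, or 1.37-fold lower (adjusted p = 0.0209; 0.0827 with pairs averaged). In wild type Fosb was the only member called, 1 of 10, where 9.46% of all probes were called and 4.03% were lower. The difference between the responses was 0.08 ± 0.11 (95% interval −0.17 to 0.33, adjusted p = 0.858). The Ser585Gly call held in 7 of 12 alternatives and also ended with plain background subtraction (0.0522), no background correction (0.0647), no dye term (0.0639) and a trended prior (0.0505). It ended when replicate 1 or 2 of its own edge (adjusted p = 0.324 and 0.145) or of the wild-type time edge (0.0886 and 0.0845) was left out, and likewise for replicate 2 of the mutation edges at 12 h (0.0973) and 0 h (0.0869). The wild-type call ended when replicate 1 or 2 of its own edge (0.143 and 0.150), replicate 1 of the Ser585Gly time edge (0.0698) or replicate 2 of the mutation edge at 0 h (0.0513) was left out.

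Junb, a Jun protein that often restrains Jun-driven growth, read −0.39 and −0.46 in Ser585Gly and −0.18 and −0.32 in wild type. All 4 arrays were below 0. The fit gave −0.44 ± 0.09 in Ser585Gly, or 1.36-fold lower (adjusted p = 0.0205, limma; 0.0829 with pairs averaged), and −0.23 ± 0.09 in wild type (adjusted p = 0.177). With print-tip loess the wild-type fall was called too (−0.34, adjusted p = 0.0183). The difference between the responses in the fit was −0.21 ± 0.11 (95% interval −0.46 to 0.03, adjusted p = 0.752). In Ser585Gly the deposited value table gave −0.23 and no call (adjusted p = 0.0653), as did median centring (−0.37, 0.0857). Without replicates 1 or 2 of the Ser585Gly time edge the call was lost (0.163 and 0.115), as it was without replicate 2 of the wild-type time edge (0.0571) and of the mutation edges at 12 h (0.0554) and 0 h (0.0503). With dye-swap pairs averaged, Fos was the only one of the 10 members still called in Ser585Gly (6.17% of all probes) and none was called in wild type (4.91%). At an unadjusted p under 0.05 that last fit held 4 members, where 22.2% of probes were.

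Because Fos, Fosb and Junb were the members called in Ser585Gly at 12 h, the 250 bases upstream of their annotated starts are shown (RefSeq, GRCm38.p6). The core TGACG, which is part of the CRE (TGACGTCA, a CREB and ATF site), is in capitals on the strand printed; this core was chosen after the other motifs had been searched.
Fos, chr12:85473640-85473889, + strand: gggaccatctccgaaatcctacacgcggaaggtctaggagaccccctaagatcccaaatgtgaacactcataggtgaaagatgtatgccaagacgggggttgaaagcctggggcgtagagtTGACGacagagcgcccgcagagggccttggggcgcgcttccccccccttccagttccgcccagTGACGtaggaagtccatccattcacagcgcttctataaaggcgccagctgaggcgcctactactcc
Fosb, chr7:19310046-19310295, − strand: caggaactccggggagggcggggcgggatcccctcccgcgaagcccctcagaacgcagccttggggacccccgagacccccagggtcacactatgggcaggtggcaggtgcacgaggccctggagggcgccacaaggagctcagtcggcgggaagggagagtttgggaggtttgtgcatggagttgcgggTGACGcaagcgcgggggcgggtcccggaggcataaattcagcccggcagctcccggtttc
Junb, chr8:84978749-84978998, − strand: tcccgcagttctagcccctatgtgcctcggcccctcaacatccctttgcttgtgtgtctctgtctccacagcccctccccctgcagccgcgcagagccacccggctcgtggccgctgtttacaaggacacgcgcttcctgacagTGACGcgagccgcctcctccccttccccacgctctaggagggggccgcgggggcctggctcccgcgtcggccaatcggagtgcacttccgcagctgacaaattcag
The core lay 129 to 125 and 66 to 62 bases upstream of the start in Fos, 60 to 56 in Fosb and 106 to 102 in Junb. On either strand, 17.8% of the 32851 promoters of the table held it within the same 250 bases. The Egr site GCGNGGGCG, held by 4.7% of promoters, was in Fosb, 50 to 42 bases upstream, and in Fosl2, 79 to 71 bases upstream. The AP-1 site (TRE, TGANTCA), the full CRE, the STAT site (GAS, TTCNNNGAA) and the CArG box bound by serum response factor were in 6.75%, 1.55%, 7.02% and 1.47% of promoters, and none of these 4 was in the windows of Fos, Fosb or Junb. Motifs were searched on both strands, and the core is contained in each full CRE. Promoters were matched for 7 of the 10 members, with 11 windows. Egr2 held the core in its 3 later starts and the CArG box in 4 of its windows, while Jun and Jund held none of the motifs. Egr1, Egr3 and Fosl1 are named only. A match describes the letters of a window and is not a measured site. Sites more than 250 bases upstream, or with letters other than those searched, would have been missed.

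The other Fos-related genes did not pass in either population. Fosl1, which encodes Fra-1, read −0.36 and 0.04 in Ser585Gly and 0.19 and 0.38 in wild type. Its Ser585Gly arrays disagreed in sign. The fit gave −0.02 ± 0.13 in Ser585Gly and 0.15 ± 0.13 in wild type (adjusted p = 0.945 and 0.568, limma). Fosl2, which encodes Fra-2, read −0.05 and −0.34 in Ser585Gly and 0.04 and −0.38 in wild type, so that the populations overlapped. Its fitted ratios were −0.27 ± 0.15 in Ser585Gly and −0.10 ± 0.15 in wild type (adjusted p = 0.317 and 0.741).

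Jun, the main partner of Fos, read −0.39 and −0.60 at 12 h over 0 h in Ser585Gly, against 0.19 and 0.56 in wild type. These arrays differed in sign between the populations. The fit gave −0.38 ± 0.15 in Ser585Gly and 0.26 ± 0.15 in wild type, neither of which passed (adjusted p = 0.157 and 0.336, limma). With the deposited value table the Ser585Gly ratio was called (−0.29, adjusted p = 0.0355). The wild-type ratio rested on replicate 2 of its edge, without which it was 0.002. The difference between these responses was −0.64 ± 0.17 (95% interval −1.03 to −0.25), the 237th smallest p of 21779 probes, and it did not pass either (adjusted p = 0.460). No member passed the test of a difference between the responses, where 0.0551% of all probes (12) did. At an unadjusted p under 0.05 there were 3 members, which were Jun, Fos and Jund, against 7.01% of probes, and with pairs averaged no probe passed and 3 members were at an unadjusted p under 0.05, against 6.93% of probes.

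Jund, a Jun gene known for steady expression, read −0.12 and 0.07 in Ser585Gly and −0.53 and 0.01 in wild type. The ratios of the populations overlapped, and the dye orientations disagreed in sign in each. The fit gave 0.003 ± 0.11 in Ser585Gly and −0.29 ± 0.11 in wild type (adjusted p = 0.990 and 0.149, limma). With the comparison as a random block the wild-type ratio was called (adjusted p = 0.0445).

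The Egr genes did not pass at 12 h in either population. Egr1, a growth and activation factor in many cell types, read −0.11 and −0.23 in Ser585Gly and 0.001 and 0.13 in wild type, with fitted ratios of 0.04 ± 0.25 in Ser585Gly and −0.15 ± 0.25 in wild type. Its fitted ratios have the opposite sign to the arrays of the same edge, since the fit also uses the other sides of the square. Egr2, which restrains T cell activation together with Egr3, read 0.26 and 0.22 in Ser585Gly and 0.28 and 0.33 in wild type. All 4 arrays were positive and lay close together, and the fit gave 0.38 ± 0.16 in Ser585Gly (adjusted p = 0.177, limma) and 0.16 ± 0.16 in wild type (0.594). Both Egr2 responses passed with the deposited value table (0.34, adjusted p = 0.0121 in Ser585Gly; 0.31, 0.0179 in wild type) and with print-tip loess (0.33, 0.0281 in Ser585Gly; 0.36, 0.0213 in wild type). Egr3 read −0.03 and −0.03 in Ser585Gly and −2.04 and −0.05 in wild type, so that its fitted wild-type ratio of −0.83 ± 0.33 (adjusted p = 0.162) rests on replicate 1 of that edge. Without that array it was −0.07.

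Before GM-CSF, at 0 h, Jun was higher and Jund lower in Ser585Gly than in wild type. Those were 2 of the 10 members called, and 4.07% of all probes were called. In each direction 1 of 10 members was called, where 2.07% of probes were higher and 2.0% lower. The members' median was −0.12, against −0.00155 over all probes. On replicate 1 of this edge the members' median absolute ratio was 0.52, and on the other arrays it was 0.15 to 0.32. The results without that array are given beside each call.

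**Figure D2:**
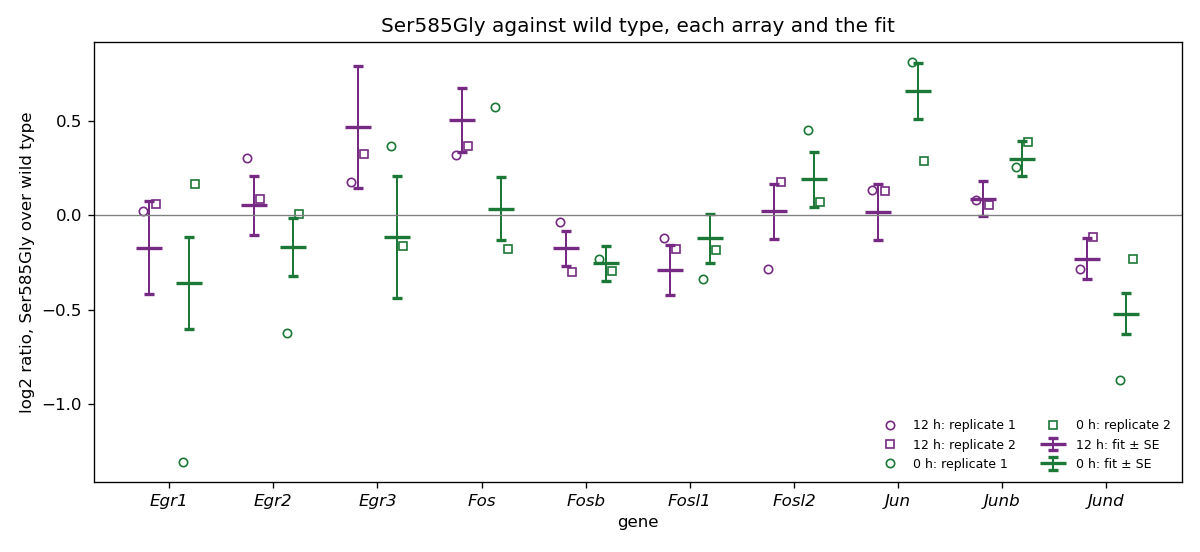
Log2 ratio of Ser585Gly over wild type for each of the 10 genes (y axis), at 12 h (purple) and 0 h (green). Open symbols are single arrays by dye orientation, bars are the fit over 8 arrays with its standard error. At 0 h both arrays of Jun lie above 0 and both of Jund below, and in each gene replicate 1 lies farther from 0.

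Jun read 0.81 and 0.29 in Ser585Gly over wild type at 0 h, both above 0. The fit gave 0.66 ± 0.15, or 1.58-fold higher (adjusted p = 0.0478, limma; 0.0774 with pairs averaged). This call stood at the threshold and was lost whichever of the 8 arrays was left out. Without replicates 1 or 2 of this edge the adjusted p was 0.195 and 0.0684, and without those of the mutation edge at 12 h it was 0.0878 and 0.106. Without replicates 1 or 2 of the time edge it was 0.125 and 0.0761 in Ser585Gly and 0.0653 and 0.0768 in wild type. The ratio without those arrays was 0.58 to 0.91. The call also ended with median centring (0.0829), scale normalisation (0.0545) and no dye term (0.0553), and held in 8 of 12 alternatives. The mean log2 intensity of this spot ranged from 9.21 to 12.2 over the arrays, an SD of 1.02 at the 97.1 percentile of all probes, where the median SD was 0.42. Jund read −0.87 and −0.23, both below 0, with a fitted ratio of −0.52 ± 0.11, or 1.44-fold lower (adjusted p = 0.0381, limma; 0.0843 with pairs averaged). It held in 8 of 12 alternatives and also ended with print-tip loess (−0.37, 0.0501), median centring (0.0562) and no dye term (0.129). The call was kept when replicate 2 of the Ser585Gly time edge was left out (0.0484). It ended for replicate 1 of that edge (0.114), replicates 1 or 2 of the wild-type time edge (0.0712 and 0.0849), and replicates 1 or 2 of the mutation edge at 12 h (0.0547 and 0.0954) or at 0 h (0.152 and 0.119). With pairs averaged no member was called at 0 h, where 1.27% of all probes were, and 3 members were at an unadjusted p under 0.05, where 22% of probes were.

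The 8 other members were not called at 0 h. Junb read 0.26 and 0.39 and Fosb −0.23 and −0.30, so that the orientations of each gene were of 1 sign. The fit gave 0.30 ± 0.09 for Junb and −0.25 ± 0.09 for Fosb (adjusted p = 0.112 and 0.158, limma). With the comparison as a random block Junb and Fosb were called (adjusted p = 0.0289 and 0.0465). Fosb was also called with the deposited value table (−0.28, 0.0492). Fosl1 read −0.34 and −0.18 and Fosl2 0.46 and 0.07. Their fits, −0.12 ± 0.13 and 0.19 ± 0.15, were close to their errors. In Fos (0.58 and −0.18), Egr1 (−1.31 and 0.17) and Egr3 (0.37 and −0.16) the orientations disagreed in sign, and Egr2 read −0.63 and 0.01. Egr1 therefore has no settled direction: its fitted ratio of −0.36 ± 0.25 had a 95% interval of −0.92 to 0.21, and without replicate 1 of this edge it was 0.21.

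At 12 h no member was called between Ser585Gly and wild type in the fit (limma), where 1.72% of all probes were called. Fos was the 1 member at an unadjusted p under 0.05, where 13% of probes were, and with pairs averaged 2 members were, where 12% of probes were. The deposited value table called Fos alone (0.37, adjusted p = 0.0442), where 10.2% of its probes were called. The fitted ratios of Jun and Junb at 12 h were 0.02 ± 0.15 and 0.09 ± 0.09, with 95% intervals of −0.32 to 0.36 and −0.12 to 0.30. For Jund the ratio was −0.23 ± 0.11 (−0.48 to 0.02), with arrays at −0.28 and −0.11, both below 0 as at 0 h. Fosb was at −0.17 ± 0.09 (arrays −0.03 and −0.30) and Fosl1 at −0.29 ± 0.13 (arrays −0.12 and −0.18), all below 0. Fosl2 (−0.28 and 0.18) overlapped 0. The Egr arrays were above 0 at 12 h, at 0.02 and 0.06 for Egr1, 0.31 and 0.09 for Egr2 and 0.18 and 0.33 for Egr3, but the intervals of the 3 fitted ratios spanned 0. The fitted ratio of Egr1 had the opposite sign to its arrays, at −0.17 ± 0.25. For Egr3 only 1 of 4 Ser585Gly readings and 2 of 4 wild-type readings at 12 h were above the empty wells.

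**Figure D3:**
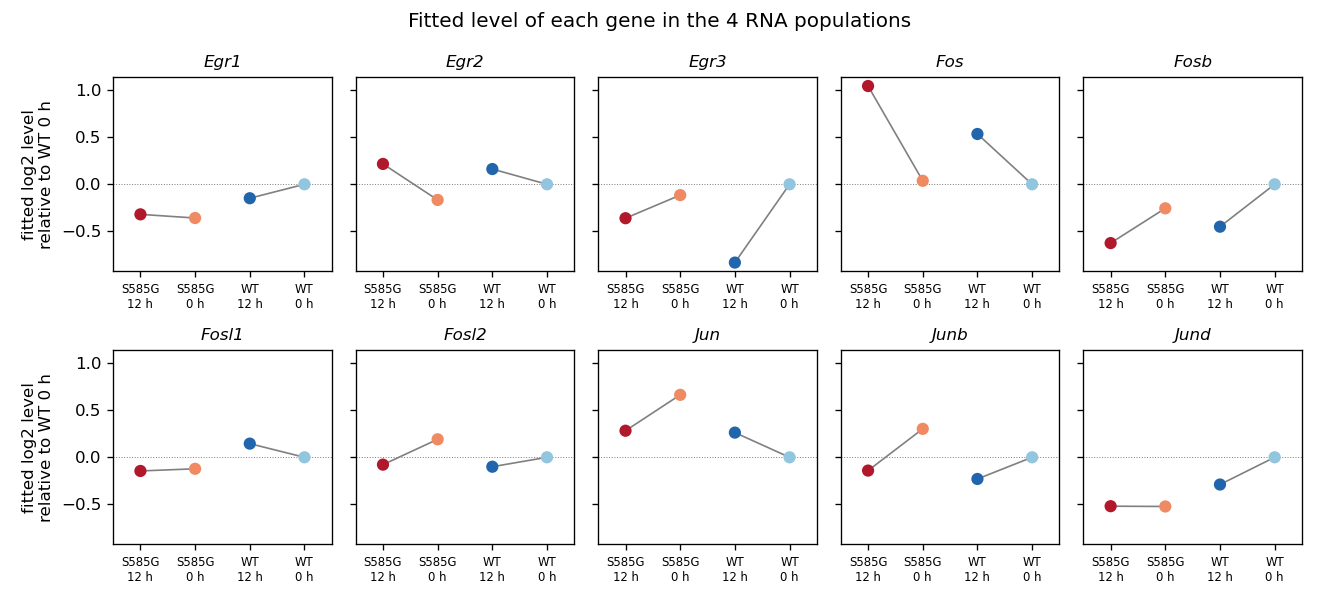
Fitted log2 level of each gene in the 4 RNA populations, relative to wild type at 0 h (y axis; S585G is Ser585Gly and WT wild type). Lines join 12 h and 0 h of a population; errors are those of the ratios given in the text. Fos is highest in Ser585Gly at 12 h (1.04), and Jun is highest in Ser585Gly at 0 h (0.66).

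Put on 1 scale with wild type at 0 h at 0, the fitted levels of Fos were 1.04 in Ser585Gly at 12 h, 0.04 in Ser585Gly at 0 h and 0.53 in wild type at 12 h. Of the 4 edges of the square, 12 h against 0 h in Ser585Gly was the only one beyond the threshold. Fosb was lowest in Ser585Gly at 12 h (−0.62), next in wild type at 12 h (−0.45) and then in Ser585Gly at 0 h (−0.25), and only its steps over time passed. Jun was at 0.28 in Ser585Gly at 12 h, 0.66 in Ser585Gly at 0 h and 0.26 in wild type at 12 h, and the levels at 12 h did not differ beyond their error. Jund was at −0.52 in Ser585Gly at both times and at −0.29 in wild type at 12 h. Junb was at −0.14 in Ser585Gly at 12 h, 0.30 in Ser585Gly at 0 h and −0.23 in wild type at 12 h. Single-dye levels spread more than the ratios do: the normalised log2 intensity of Fos was 9.01 ± 0.27 and 8.05 ± 0.49 in Ser585Gly at 12 h and 0 h, and 8.35 ± 0.69 and 7.86 ± 0.55 in wild type at 12 h and 0 h (SD of 4 readings). The Fos readings in Ser585Gly ran from 8.66 to 9.24 at 12 h and from 7.56 to 8.56 at 0 h. In wild type they ran from 7.42 to 8.92 at 12 h and from 7.25 to 8.54 at 0 h. The share of all probes with readings set apart in this way was not counted, and the Fos responses were not shown to differ. The readings of Jun overlapped between all 4 populations, with SDs of 0.62 to 1.38.

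Genes whose 8 ratios ran most like those of a called member were found by uncentred correlation over the 8 arrays, among the 2857 probes with 1 symbol that passed in any comparison. The arrays of a dye swap compare the same populations and may share RNA, so these values are descriptions. For Fos they were Brctd1 (0.968), 1600029I14Rik (0.964) and Mrpl36 (0.963), and for Fosb they were Sobp (0.985), Rapgef2 (0.976) and Abl1 (0.969). Junb ran most like Sat1 (0.974), Ctns (0.972) and Lancl1 (0.970). Jund ran most like Ehmt1 (0.977), Pias1 (0.962) and 1700020L24Rik (0.960). For Jun the likeness was lower, with Pgpep1l at 0.940, Rpl22l1 at 0.906 and Sirt6 at 0.904.

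**Figure D4:**
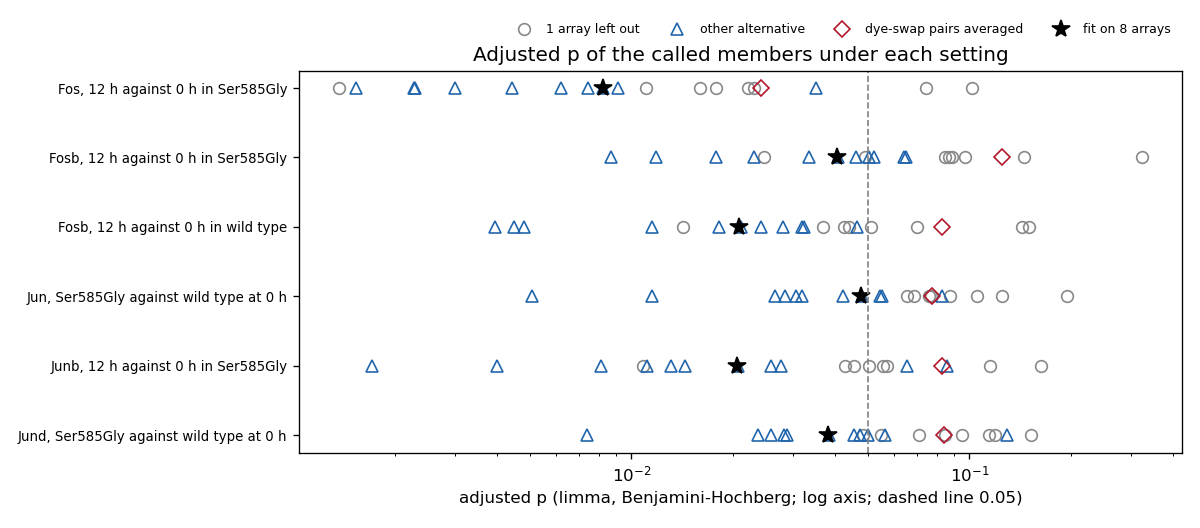
Adjusted p of the 6 called member results (limma, Benjamini-Hochberg; log axis) under each setting, with the threshold of 0.05 as a dashed line. Stars are the fit on 8 arrays, diamonds the dye-swap pairs averaged, triangles the other alternatives and circles the fits without 1 array. Fos is the only member whose diamond lies below 0.05.

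Other genes of the pathway were read from lists of partners, regulators and targets. Of the 24 measured AP-1 partners, other leucine-zipper proteins of the Batf, Atf and Maf families, 3 were higher and 2 lower at 12 h in Ser585Gly, and 4 were higher and 1 lower in wild type (3 and 1 in Ser585Gly and 1 and 1 in wild type with pairs averaged). That was 20.8% of the list in each population, where 10.5% of all probes were called in Ser585Gly and 9.46% in wild type. The list median was 0.11 in Ser585Gly and 0.18 in wild type, against 0.00821 and −0.0113 over all probes. Atf4, the factor of the amino acid and stress response, rose by 1.10 ± 0.12 in Ser585Gly and 1.13 ± 0.12 in wild type (adjusted p = 0.00139 and 0.00117, limma). Atf6, a factor of the endoplasmic reticulum stress response, was at −0.68 ± 0.10 in both. Nfe2l2, which drives oxidative stress genes, rose by 1.24 ± 0.13 in Ser585Gly and was at 0.32 ± 0.13 in wild type (adjusted p = 0.00116 and 0.167), and at 12 h it was higher in Ser585Gly than in wild type by 1.44 ± 0.13 (0.00136). Jdp2, which pairs with Jun proteins and represses AP-1 sites, was higher in Ser585Gly by 1.04 ± 0.11 at 0 h (adjusted p = 0.00266; 0.0213 with pairs averaged) and by 0.55 ± 0.11 at 12 h (0.0482; 0.148 with pairs averaged). Over 12 h Jdp2 rose in wild type by 0.51 ± 0.11 (adjusted p = 0.0229, and 0.0672 with pairs averaged). In Ser585Gly its 12 h ratio was 0.02 ± 0.11 (0.951). In total 3 partners were higher and 0 lower in Ser585Gly than in wild type at 0 h, and 2 and 0 at 12 h, or 1 and 0 at each time with pairs averaged. The fit called 12.5% of the list at 0 h, where 4.07% of all probes were called, and 8.33% at 12 h, where 1.72% were. Atf6 was at 0.45 at 0 h (limma, adjusted p = 0.0486, and 0.101 with pairs averaged).

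Serum response factor and its cofactors carry ERK and actin signals to Egr and Fos promoters. All 6 measured genes of that list were below 0 in both populations, with medians of −0.39 in Ser585Gly and −0.38 in wild type. Of them, 2 were called lower in Ser585Gly, where 4.72% of all probes were lower, and 1 in wild type, where 4.03% were. With pairs averaged, 1 was called in Ser585Gly, which was the coactivator gene Ep300, and 0 in wild type. Elk4, an ETS-domain partner of the factor, was at −0.40 ± 0.10 in Ser585Gly and −0.44 ± 0.10 in wild type (adjusted p = 0.0413 and 0.0313, limma; 0.106 and 0.0883 with pairs averaged). Srf itself was at −0.37 ± 0.10 in Ser585Gly (adjusted p = 0.0445; 0.123 with pairs averaged) and −0.35 ± 0.10 in wild type (0.0580). Of the 4 Egr corepressors and other Egr genes, 1 passed, Nab2, which binds Egr proteins and blocks them, at −0.40 ± 0.09 in Ser585Gly (0.0265; 0.105 with pairs averaged). Among 18 measured upstream kinases and adaptors, 1 was higher and 1 lower in each population, or 0 and 1 in Ser585Gly with pairs averaged. The fit called 11.1% of the list in each population, near the share of all probes (10.5% in Ser585Gly and 9.46% in wild type). Mapk14, the stress kinase p38 alpha, rose by 0.39 ± 0.09 in Ser585Gly (0.0302; 0.110 with pairs averaged) and 0.69 ± 0.09 in wild type (0.00315). Map3k1, a kinase above JNK, was at −0.96 ± 0.12 in Ser585Gly (0.00236) and −0.42 ± 0.12 in wild type (0.0658). Rps6ka5, a nuclear kinase below ERK and p38, was at −0.41 ± 0.11 in Ser585Gly (0.0563) and −0.72 ± 0.11 in wild type (0.00753).

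**Figure D5:**
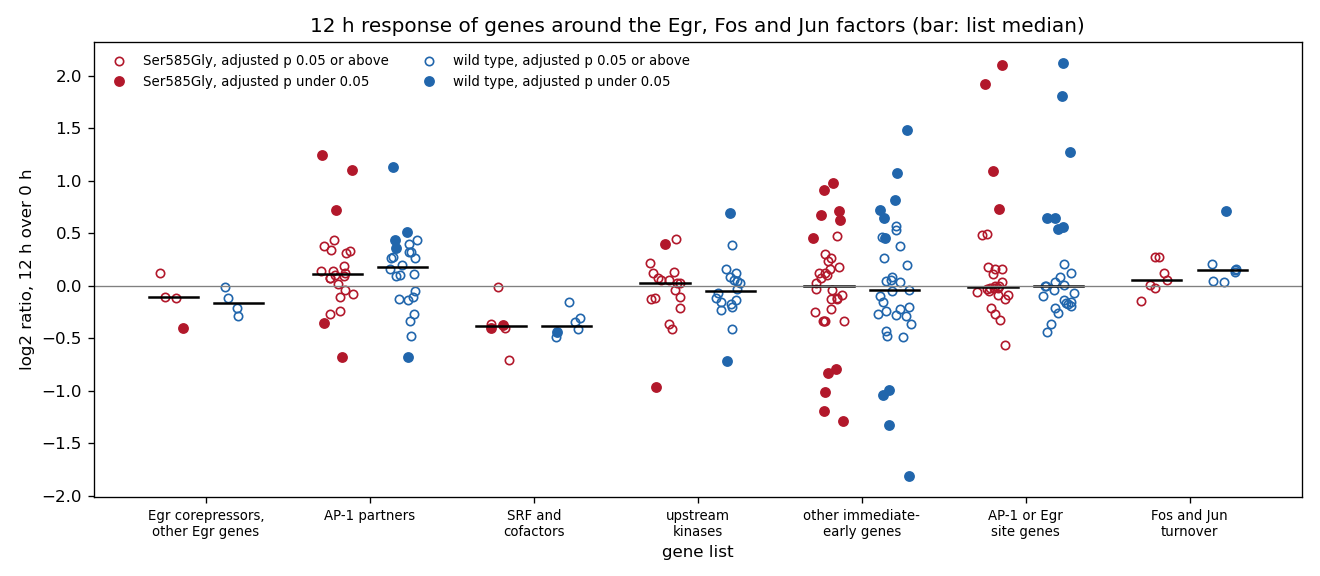
Log2 ratio of 12 h over 0 h (y axis) for each measured gene of 7 lists of genes around the Egr, Fos and Jun factors (x axis), in Ser585Gly (red) and wild type (blue). Filled points passed at an adjusted p under 0.05, and black bars are list medians. The serum response factor list has the lowest medians (−0.39 and −0.38).

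The other immediate-early genes, 34 measured, moved in both directions. At 12 h, 6 were higher and 5 lower in Ser585Gly, and 6 were higher and 4 lower in wild type. With pairs averaged these were 5 and 4 in Ser585Gly and 4 and 4 in wild type. The fit called 32.4% of the list in Ser585Gly, where 10.5% of all probes were called, and 29.4% in wild type, where 9.46% were. The list medians were −0.00551 in Ser585Gly and −0.0457 in wild type. Klf6, a zinc-finger factor, was at −1.20 ± 0.10 in Ser585Gly and −1.04 ± 0.10 in wild type. At 0 h Klf6 was higher in Ser585Gly than in wild type by 0.48 ± 0.10 (adjusted p = 0.03965, limma, and 0.09295 with pairs averaged). Nr4a2, an orphan nuclear receptor induced by T cell receptor signals, was at −1.01 ± 0.12 in Ser585Gly and −0.99 ± 0.12 in wild type. Btg2, an inhibitor of proliferation, was at −1.29 ± 0.14 in Ser585Gly and −1.82 ± 0.14 in wild type. In contrast Dusp6, a phosphatase that ERK signalling induces, rose by 0.62 ± 0.11 in Ser585Gly and 1.48 ± 0.11 in wild type, and at 12 h its ratio of Ser585Gly over wild type was −0.69 ± 0.11 (adjusted p = 0.0227, limma; 0.0968 with pairs averaged). At 0 h 1 gene of the list was higher and 1 lower in Ser585Gly, and at 12 h 0 and 2, or 0 and 1 at 0 h and 0 and 0 at 12 h with pairs averaged. The fit called 5.88% of the list at each time, where 4.07% of all probes were called at 0 h and 1.72% at 12 h.

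Genes with described AP-1 or Egr sites in T cells, 26 measured, included 4 that rose and 0 that fell at 12 h in Ser585Gly, where 5.73% of all probes rose and 4.72% fell, and 7 and 0 in wild type, where 5.43% rose and 4.03% fell. With pairs averaged these were 4 and 0 in Ser585Gly and 5 and 0 in wild type. The list medians in the fit were −0.0125 in Ser585Gly and −0.00311 in wild type. Lta, which encodes lymphotoxin alpha, rose by 2.10 ± 0.15 in Ser585Gly and 2.12 ± 0.15 in wild type, and Il2ra, the interleukin-2 receptor alpha chain, by 1.92 ± 0.14 in Ser585Gly and 1.81 ± 0.14 in wild type. Tnf, an inflammatory cytokine, rose by 1.09 ± 0.10 in Ser585Gly and 1.27 ± 0.10 in wild type. Id2, an inhibitor of helix-loop-helix factors, was lower in Ser585Gly than in wild type, at −1.34 ± 0.09 at 12 h and −1.22 ± 0.09 at 0 h (adjusted p = 0.000447 and 0.000516, limma). The list had 2 higher and 2 lower in Ser585Gly at 0 h, and 1 and 1 at 12 h, or 1 and 1 at 0 h and 0 and 1 at 12 h with pairs averaged. The fit called 15.4% of the list at 0 h, where 4.07% of all probes were called, and 7.69% at 12 h, where 1.72% were. Among 7 measured genes that turn over Fos and Jun proteins, 0 passed in Ser585Gly and 1 was higher in wild type, Det1, part of a ligase that in human cells targets Jun, at 0.27 ± 0.11 in Ser585Gly (0.159) and 0.71 ± 0.11 in wild type (0.00583). No gene of these lists passed the test of a difference between the responses.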

How the data were processed

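Per the file headers, each array file gives Cy5 and Cy3 spot and background intensity, and the deposited value table holds log2 ratios of Cy5 over Cy3. The submitters' processing notes name limma, with settings not given in the sources used here, and the same holds for how the intensities were made. Median Cy5 intensity was 631 to 946 per array and median Cy3 intensity 795 to 1105, and the number of arrays limits the precision.

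Gene probes were placed on spots by the number in their name, and control probes by their coded position. Gene names were then moved from the 48-pin order of the deposited names to a 24-pin print order given for this work. Of 23040 rows, 21779 gene probes were placed and 15 were not. The 8 ratios served as a check of the deposited order. By them, 90.3% of placed gene probes and 94.1% of 1012 coded control probes were nearest to their own spot. The median brightness percentile of 184 empty wells was 1.13 in the recovered order and 51.3 in the deposited order. Between the probes of 904 genes with exactly 2 probes, the 12 h ratios correlated at 0.385 in the recovered order and −0.0708 in the deposited order. Symbols came from the platform annotation, updated by gene identifier (15972 of 16644 probes with 1 symbol; 137 had several and 4998 none). Control-plate wells also named Junb and Jund were not used, since 84 accessions named in both kinds of control well correlated at only 0.111 in their 12 h ratios.

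Background was corrected by normexp (offset 50), each array was normalised by loess (span 0.3, weight 0 on controls), and limma 3.58.1 in R 4.3.3 fitted mutation, time, interaction and dye over 8 arrays (residual degrees of freedom 4, prior 4.36). All tests were two-sided and adjusted by Benjamini-Hochberg over 21779 probes, with a threshold of 0.05, and the script was tested on simulated data. The fit with dye-swap pairs averaged is printed beside each named gene's call it changes and beside the list counts it changes. Single-dye levels were scaled between arrays by Aquantile.

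Every member is named; of each list, up to 4 genes that passed are named, by smallest adjusted p; 3 genes of like pattern are named per called member. Members and lists were chosen with earlier results of these data known. Promoter sequences are RefSeq's, build GRCm38.p6. Alternatives covered background, normalisation, dye, prior, filters and arrays left out.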

Additional observations from a re-analysis of the deposited data

How the results depend on the processing

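Of 50 ratios (10 members in 5 comparisons), 6 were called in the fit on 8 arrays, and 35 were called neither there nor in any of the 12 alternatives or the 8 fits without 1 array. No called ratio changed sign. The number of members called at 12 h against 0 h in Ser585Gly was 3 and became 1 with pairs averaged, 4 with the deposited value table or print-tip loess, 2 with plain subtraction, no background correction, median centring, no dye term, a trended prior or dim probes left out, and 0 to 3 without 1 array. In wild type it was 1, and became 0 with pairs averaged, 3 with the comparison as a random block, 2 with the deposited value table, 3 with print-tip loess and 0 to 2 without 1 array. For Ser585Gly against wild type at 0 h it was 2, and became 0 with pairs averaged, 4 with the random block, 3 with the deposited value table, 1 with print-tip loess, 0 with median centring, 1 with scale normalisation, 0 without the dye term and 0 to 1 without 1 array. At 12 h it was 0 and became 1 with the deposited value table. For the interaction it was 0 in every setting run. The cause was not tested.

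Over all probes the counts at 12 h against 0 h were 2277 in Ser585Gly and 2061 in wild type; they were 4306 and 4183 with the random block, 4238 and 4176 with the deposited table, 4278 and 4077 with print-tip loess, and 1344 and 1069 with pairs averaged. Without 1 array they were 269 to 3430 and 411 to 3302. For the mutation at 12 h and 0 h they were 374 and 886; they were 1133 and 3385 with the random block, 2205 and 2553 with the deposited table, 994 and 2041 with print-tip loess, and 155 and 277 with pairs averaged. Scale normalisation gave 736 at 12 h, median centring gave 546 and no dye term gave 509 at 0 h, and without 1 array the counts were 68 to 627 and 110 to 637. The interaction had 12, against 35, 90, 49 and 0 in those 4 settings, 20 with either other background, 21 with a trended prior, 1 after scaling, 6 without the dye term and 0 to 5 without 1 array. Under median centring 65.0% of the calls in Ser585Gly over time were higher, against 54.9%. Atf4, Klf6, Btg2, Il2ra, Tnf, Lta and Id2 kept their calls in all 8 fits without 1 array, except Klf6 at 0 h; of the settings over the 19 named list genes, 634 kept the call and 104 lost it. Fos and Egr3 were too dim to be tested once dim probes were left out. Other probes could not be tried for the members, since each has 1 gene probe. Of the named list genes, Il2ra had 4 probes and Elk4 and Rps6ka5 had 2 each. These genes were read on the brightest probe, and their other probes are not reported here. No paired analysis was possible because the labels give no replicate numbers that pair arrays across comparisons. The dye swaps within a comparison were averaged or given a random block, as above. The block correlation of 0.326 was taken on ratios of Cy5 over Cy3, before they were turned to 1 orientation. In that form the block makes no allowance for RNA shared by a dye swap, whereas averaging the pairs does.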
